A study of Mus musculus with 16 samples.

Results

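Autophagy, mitophagy and lysosome genes were followed in tibialis anterior muscle of mice on a NASH diet that received vehicle, received the hormone GDF15, or ate only as much as the GDF15-treated mice. The set was a list of 37 gene symbols covering the machinery from autophagosome initiation to lysosomal proteases, and all 37 were found among the 14538 genes of the deposited expression table. The genes were listed by their function and not by measured values, although earlier results of these data were known.

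Autophagy encloses cytoplasm in a double membrane, the autophagosome, which fuses with a lysosome where the contents are degraded. A kinase complex built around ULK1 starts the process, a lipid kinase complex marks the membrane, conjugation enzymes attach small ATG8 proteins to it, and receptor proteins such as p62 (encoded by Sqstm1) tether the cargo. In skeletal muscle the pathway is known to be engaged when nutrients are short, when FoxO transcription factors raise the transcripts of several of its genes and TFEB raises those of lysosomal genes.

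The series held 16 libraries of bulk RNA-seq, 1 per mouse: 5 from vehicle-treated, 6 from GDF15-treated and 5 from pair-fed mice. All were wild-type males of C57BL/6 background by the labels (C57BL/6J by the methods), placed at 8 weeks of age on a diet rich in fat and fructose at about 29 °C and housed singly during treatment. Recombinant GDF15 was injected under the skin once a day; the labels give several doses and do not say which was used for these mice. Daily rations in the pair-fed group were set by the intake of the GDF15 group. The methods say that mice were killed in a fed state and do not give when the pair-fed mice last ate.

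The libraries held approximately 9486310 to 15039282 reads in the genes of the table. Levels are given as normalized counts, calculated back from the deposited log2 values and already scaled between libraries, and differences as log2 fold changes with p-values adjusted over all tested genes. Values per mouse are in the order of mice 1 to 5 for vehicle and 2 to 6 for pair-fed. All 7 muscle fibre markers were present and took 15.19% to 16.91% of the normalized counts, whereas 8 macrophage markers, a cell type rich in lysosomes, summed to 237 to 647 normalized counts, at most 0.00519% of a library, and no macrophage marker passed the test in any comparison. Of the fibre markers, Myh1, a fast myosin heavy chain, was lower in pair-fed than vehicle muscle (log2 fold change −0.68 ± 0.14 SE, limma adjusted p = 0.0123) and Ckm, muscle creatine kinase, was higher (0.15 ± 0.05, adjusted p = 0.0997). The other fast myosin genes on the list did not pass, with Myh4 at 0.18 ± 0.09 (adjusted p = 0.272) and Myh2 at −0.61 ± 0.26 (adjusted p = 0.216); the part of fibre composition in the results below was not tested. When all libraries were clustered on all tested genes, 4 libraries formed the smaller of 2 branches, 1 of them from GDF15-treated mouse 1 and the others from pair-fed mice 2, 5 and 6. Results are therefore also given without those 4 libraries, a setting chosen after the data had been seen.

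The members spanned a wide range of expression in this muscle. To compare genes, normalized counts were divided by the length of the longest annotated coding transcript. On this scale the lysosomal protease Ctsd was highest, at 4028 normalized counts per kilobase, followed by the lysosomal membrane protein Lamp1 at 3162 and the p62 gene Sqstm1 at 2919. The ATG8 gene Map1lc3a and the mitophagy receptor Bnip3 came next, at 2043 and 1366. At the low end stood Atg7, the activating enzyme of ATG8 conjugation, at 34.7, the lipid transfer gene Atg2b at 38.2, Atg14 at 42.2 and Uvrag at 42.8, the last 2 being alternative partners of the beclin 1 complex. The ranges of Ctsd and Lamp1 over the 16 libraries did not touch. Those of Lamp1 and Sqstm1 overlapped, and in pair-fed muscle the mean of Sqstm1 on this scale was above that of Lamp1. The ranges of the lowest 4 genes overlapped too, so neither of these orders was resolved.

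**Figure D1:**
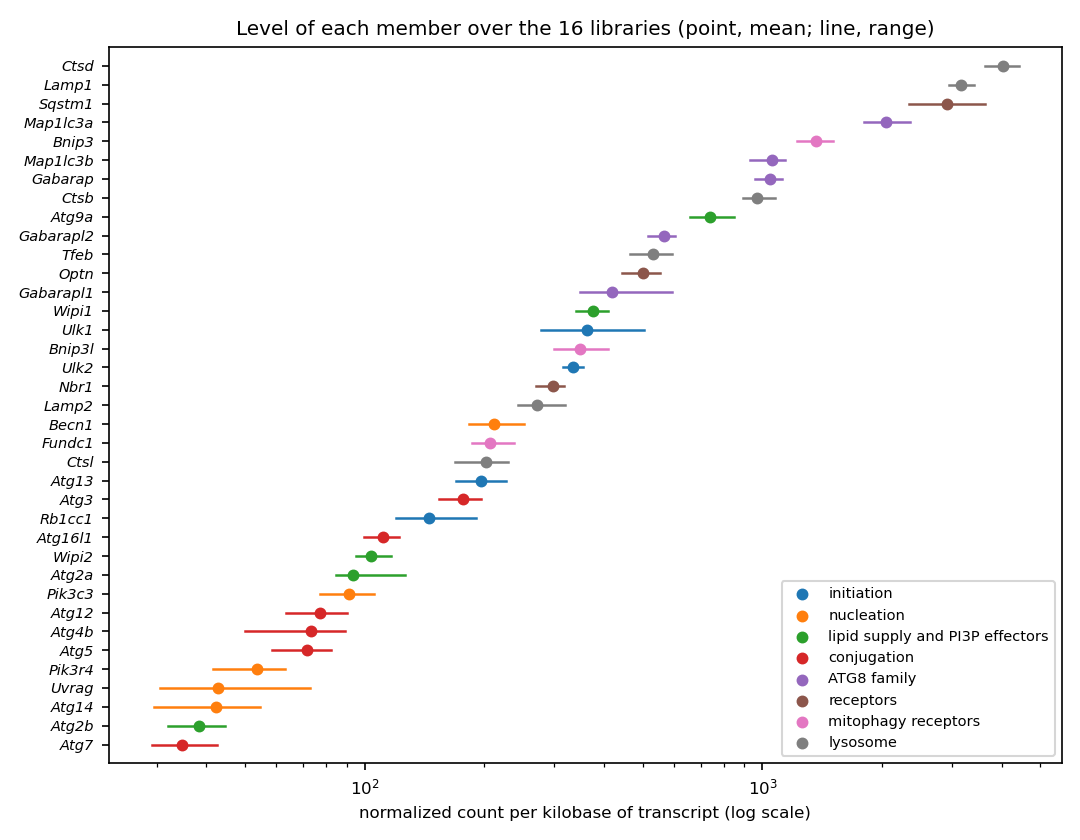
Level of each of the 37 members in normalized counts per kilobase of the longest coding transcript, on a log axis. Points are means over the 16 libraries, lines run from the lowest to the highest library, and colours give the role; Ctsd lies at the top at 4028 and Atg7 at the bottom at 34.7.

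The comparison of pair-fed with vehicle muscle asked what a lower, rationed food intake did without GDF15. The pair-fed mice alone ate a set ration, so the amount and the timing of food cannot be told apart. Pair-fed muscle had higher transcript levels of 6 of the 37 members (16.2%) at an adjusted p under 0.1, and no member was lower at that threshold. The 6 were Ulk1 and Rb1cc1 of the initiation complex, Atg9a of the lipid supply step, the ATG8 gene Gabarapl1, the cargo receptor gene Sqstm1 and the mitophagy receptor gene Bnip3l. The count fell to 3 without vehicle mouse 5 or pair-fed mouse 6. It fell to 0 without the 4 libraries of the smaller branch, which left 2 pair-fed mice. Across all 11841 tested genes, 6.37% passed this threshold, 3.2% with higher levels in pair-fed muscle. No member passed the stricter rule that also required a log2 fold change above 0.6 in size, which 0.819% of all genes met; the largest member change was 0.40. In bulk muscle, a change in the share of a cell type and a change in the RNA of each cell cannot be told apart.

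Gabarapl1, which encodes an ATG8 protein that decorates autophagosomes, lies on chromosome 6 (GRCm38, chr6:129533160-129542346, plus strand). Its normalized counts were 691, 687, 674, 696 and 684 in vehicle muscle and 856, 824, 893, 899 and 1081 in pair-fed muscle. In GDF15-treated muscle the lowest, median and highest values were 635, 698 and 762. Every pair-fed mouse was above every mouse of the other groups, and the vehicle mice were tightly grouped. The log2 fold change of pair-fed against vehicle muscle was 0.40 ± 0.06 (SE, 95% interval 0.27 to 0.54, limma adjusted p = 0.00298), a 1.32-fold higher level.

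Sqstm1 encodes p62, which binds ubiquitinated cargo and ATG8 proteins and is itself degraded by autophagy (chr11:50199366-50210827, minus strand). Vehicle muscle had 6868, 7043, 6258, 7522 and 7328 normalized counts and pair-fed muscle 9307, 7844, 8623, 9685 and 9509. GDF15-treated muscle ranged from 6977 to 7807 with a median of 7563. Again no pair-fed mouse overlapped the other groups, although pair-fed mouse 3 lay close to the highest GDF15-treated mouse. The log2 fold change of pair-fed against vehicle muscle was 0.36 ± 0.06 (95% interval 0.24 to 0.48, adjusted p = 0.00322).

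Ulk1 encodes the kinase that starts autophagosome formation (chr5:110784488-110810097, minus strand). It was at 1791, 1774, 1721, 1911 and 1808 normalized counts in vehicle muscle and at 2364, 1811, 2164, 2346 and 2619 in pair-fed muscle, while GDF15-treated muscle ran from 1450 through a median of 1678 to 1805. Pair-fed mouse 3 lay within the vehicle range and the other pair-fed mice lay above it. Pair-fed exceeded vehicle muscle by a log2 fold change of 0.32 ± 0.08 (adjusted p = 0.0355). Its paralogue Ulk2 had a log2 fold change of −0.0010 ± 0.04 (95% interval −0.08 to 0.08).

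Rb1cc1, which encodes the ULK1 scaffold FIP200 (chr1:6206197-6276648, plus strand), was at 1027, 1023, 1094, 941 and 913 in vehicle muscle. In pair-fed muscle it was at 1445, 1040, 1062, 1243 and 1399, and in GDF15-treated muscle at 928 to 1196 with a median of 1079. Pair-fed mice 3 and 4 lay within the vehicle range, and mice 2, 5 and 6 above it. The log2 fold change of pair-fed against vehicle muscle was 0.30 ± 0.09 (adjusted p = 0.0672).

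Atg9a encodes the scramblase of the vesicles that seed the autophagosome membrane (chr1:75180860-75192196, minus strand). Vehicle muscle had 2916, 3126, 2911, 3014 and 2775 normalized counts and pair-fed muscle 3374, 3095, 3361, 3308 and 3576, with GDF15-treated muscle between 2891 and 3257 around a median of 3024. Only pair-fed mouse 3 fell within the vehicle range. The log2 fold change was 0.18 ± 0.05 (adjusted p = 0.0431). Exons of Ankzf1 on the other strand overlap Atg9a; Ankzf1 had a mean of 149 normalized counts in vehicle and 191 in pair-fed muscle (log2 fold change 0.36 ± 0.13, adjusted p = 0.146), and the part of shared reads was not tested.

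Bnip3l encodes NIX, a receptor in the outer mitochondrial membrane that recruits ATG8 proteins to mitochondria (chr14:66985239-67008877, minus strand). It was at 1101, 1125, 1043, 1009 and 976 in vehicle muscle and at 1150, 1332, 1081, 1336 and 1293 in pair-fed muscle. The GDF15-treated mice had a lowest value of 1015, a median of 1104 and a highest value of 1227. Pair-fed mouse 4 overlapped the vehicle group. The log2 fold change was 0.23 ± 0.07 (adjusted p = 0.0659). A processed copy, Bnip3l-ps, is annotated elsewhere in the genome, so that reads of the gene may have been divided.

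**Figure D2:**
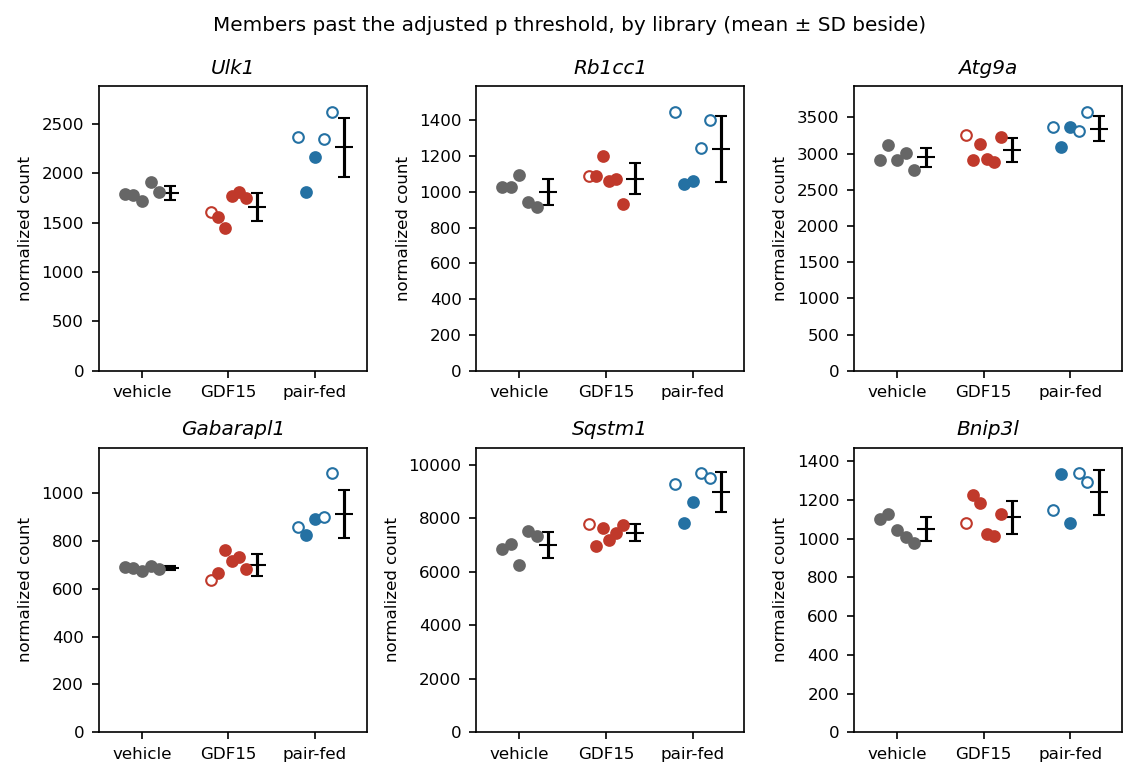
Normalized counts of the 6 members that passed the adjusted p threshold in any comparison, 1 point per mouse, with the mean and SD of each group beside the points; open points are the 4 libraries of the smaller branch. Pair-fed mice lie above all other mice for Gabarapl1 and Sqstm1 and overlap the vehicle group for Ulk1, Rb1cc1, Atg9a and Bnip3l.

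Most of the remaining members leaned the same way without passing the test. Of the 37 members, 29 (78.4%) had a positive log2 fold change in pair-fed against vehicle muscle, with a median of 0.098, beside 50.2% and a median of 0.0013 over all tested genes. The groups did not overlap for 3 members, Gabarapl1, Sqstm1 and Gabarap, which is 8.11% of the members beside 5.44% of all genes. All 5 ATG8 genes and all 6 lysosome genes had positive values, yet apart from Gabarapl1 their adjusted p-values were 0.15 or above. Gabarap was at 1344 ± 31 (SD, n = 5) normalized counts in vehicle and 1444 ± 59 (n = 5) in pair-fed muscle (log2 fold change 0.10 ± 0.04 SE, limma adjusted p = 0.151), and Map1lc3b, which encodes the LC3B used as a marker of autophagosomes, gave 0.11 ± 0.05 (adjusted p = 0.208). Among lysosome genes the values were 0.15 ± 0.06 for the protease gene Ctsl (adjusted p = 0.205) and 0.08 ± 0.04 for Lamp1 (adjusted p = 0.222). The gene of their regulator Tfeb gave 0.13 ± 0.06 (adjusted p = 0.253).

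No further member of the middle steps was called. Of the nucleation genes 4 of 5, and of the lipid supply and PI3P genes 4 of 5, had positive values. In the nucleation complex the log2 fold change of Atg14 was 0.39 ± 0.15 for pair-fed against vehicle muscle (adjusted p = 0.17) from only 141 ± 25 normalized counts in vehicle muscle, and the lipid kinase gene Pik3c3 had 0.18 ± 0.07 (adjusted p = 0.182). Becn1, the beclin 1 gene, had −0.04 ± 0.09 (95% interval −0.22 to 0.14). Of the 6 conjugation genes, 3 were positive and 3 negative, the most negative being Atg5 at −0.22 ± 0.09 (adjusted p = 0.181). Atg13 of the initiation complex was at 0.10 ± 0.08 (adjusted p = 0.535). The mitophagy receptor genes other than Bnip3l gave 0.10 ± 0.05 for Bnip3 (adjusted p = 0.298) and −0.0065 ± 0.07 for Fundc1 (95% interval −0.15 to 0.14).

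GDF15 against pair-fed muscle compared mice that ate matched amounts, and so asked what differed with GDF15 beyond the amount eaten. The part of meal timing was not tested. Ulk1, Gabarapl1 and Sqstm1, 3 of the 37 members (8.11%), were lower with GDF15 at an adjusted p under 0.1, and no member was higher. Over all tested genes 2.17% passed this threshold and 1.24% did so with lower levels. No member passed the rule on adjusted p and fold, which 0.279% of all genes met. None of the 3 was called without the 4 libraries of the smaller branch. This comparison uses the same pair-fed libraries as the previous one, so the opposite signs are not independent observations. Myh1 was at 0.39 ± 0.13 here (adjusted p = 0.193), Myh2 at 0.39 ± 0.25 (adjusted p = 0.531) and Myh4 at −0.18 ± 0.08 (adjusted p = 0.36).

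For Ulk1 the log2 fold change of GDF15 against pair-fed muscle was −0.44 ± 0.08 (SE, 95% interval −0.60 to −0.28, limma adjusted p = 0.0107), from means of 2261 ± 299 (SD, n = 5) in pair-fed and 1655 ± 140 (n = 6) normalized counts in GDF15-treated muscle. The highest GDF15-treated mouse, at 1805, was just under the lowest pair-fed mouse, at 1811. Gabarapl1 gave −0.38 ± 0.06 (95% interval −0.51 to −0.25, adjusted p = 0.00808), with means of 911 ± 100 and 699 ± 46. Sqstm1 gave −0.26 ± 0.06 (95% interval −0.38 to −0.15, adjusted p = 0.0354), with means of 8994 ± 758 and 7473 ± 331. These 3 genes were also the 3 members whose groups did not overlap, against 1.77% of all genes.

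The other members called in pair-fed muscle had values of the same sign that did not pass, at −0.20 ± 0.08 for Rb1cc1 (adjusted p = 0.312), −0.13 ± 0.05 for Atg9a (adjusted p = 0.209) and −0.16 ± 0.07 for Bnip3l (adjusted p = 0.306). Without the 4 libraries of the smaller branch the sign of Rb1cc1 was not kept, at 0.02 ± 0.09. Atg9a was then at −0.10 ± 0.06 and Bnip3l at −0.11 ± 0.09. Over the list, 30 members were lower and 7 higher with GDF15, with a median of −0.060 beside 0.0025 for all genes. The 6 lysosome genes lay between −0.07 and 0.0074, and Wipi1, a PI3P-binding effector, was at −0.11 ± 0.05 (adjusted p = 0.332). The cargo receptor genes Nbr1 and Optn were at −0.08 ± 0.04 (adjusted p = 0.449) and 0.04 ± 0.06 (adjusted p = 0.801). Conjugation genes were again mixed, with 4 positive and 2 negative values.

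GDF15 against vehicle muscle compared mice that differed both in treatment and in intake. No member passed the adjusted p threshold with limma. At an unadjusted p under 0.05 there were 4 of 37 members (10.8%), close to the 11.05% of all tested genes. The threshold was passed by 0.769% of all genes, and by 0.304% together with the fold rule. The smallest adjusted p among members was 0.219, for Wipi2, another PI3P effector, at −0.16 ± 0.05. Atg7 had the largest positive value, 0.22 ± 0.09 (adjusted p = 0.383).

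The 3 genes that were lower than in pair-fed muscle stayed near the vehicle level. Their log2 fold changes of GDF15 against vehicle were −0.13 ± 0.08 for Ulk1 (95% interval −0.29 to 0.03), 0.02 ± 0.06 for Gabarapl1 (−0.11 to 0.15) and 0.10 ± 0.06 for Sqstm1 (−0.02 to 0.21). These intervals bound the difference and do not show that the groups were equal. Gabarap was the 1 member whose groups did not overlap, at 1377 to 1499 normalized counts with GDF15 and 1297 to 1368 with vehicle, while 1.65% of all genes did not overlap; its log2 fold change was 0.10 ± 0.04 (adjusted p = 0.329). All 6 lysosome genes were positive, from 0.04 to 0.09, and none passed. The summed macrophage markers had a median of 575 normalized counts with GDF15 (285 to 647) and 399 with vehicle (322 to 560). The part of macrophages in the lysosome values was not tested. Over the list 24 members were positive and the median was 0.045, beside 0.00081 for all genes.

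**Figure D3:**
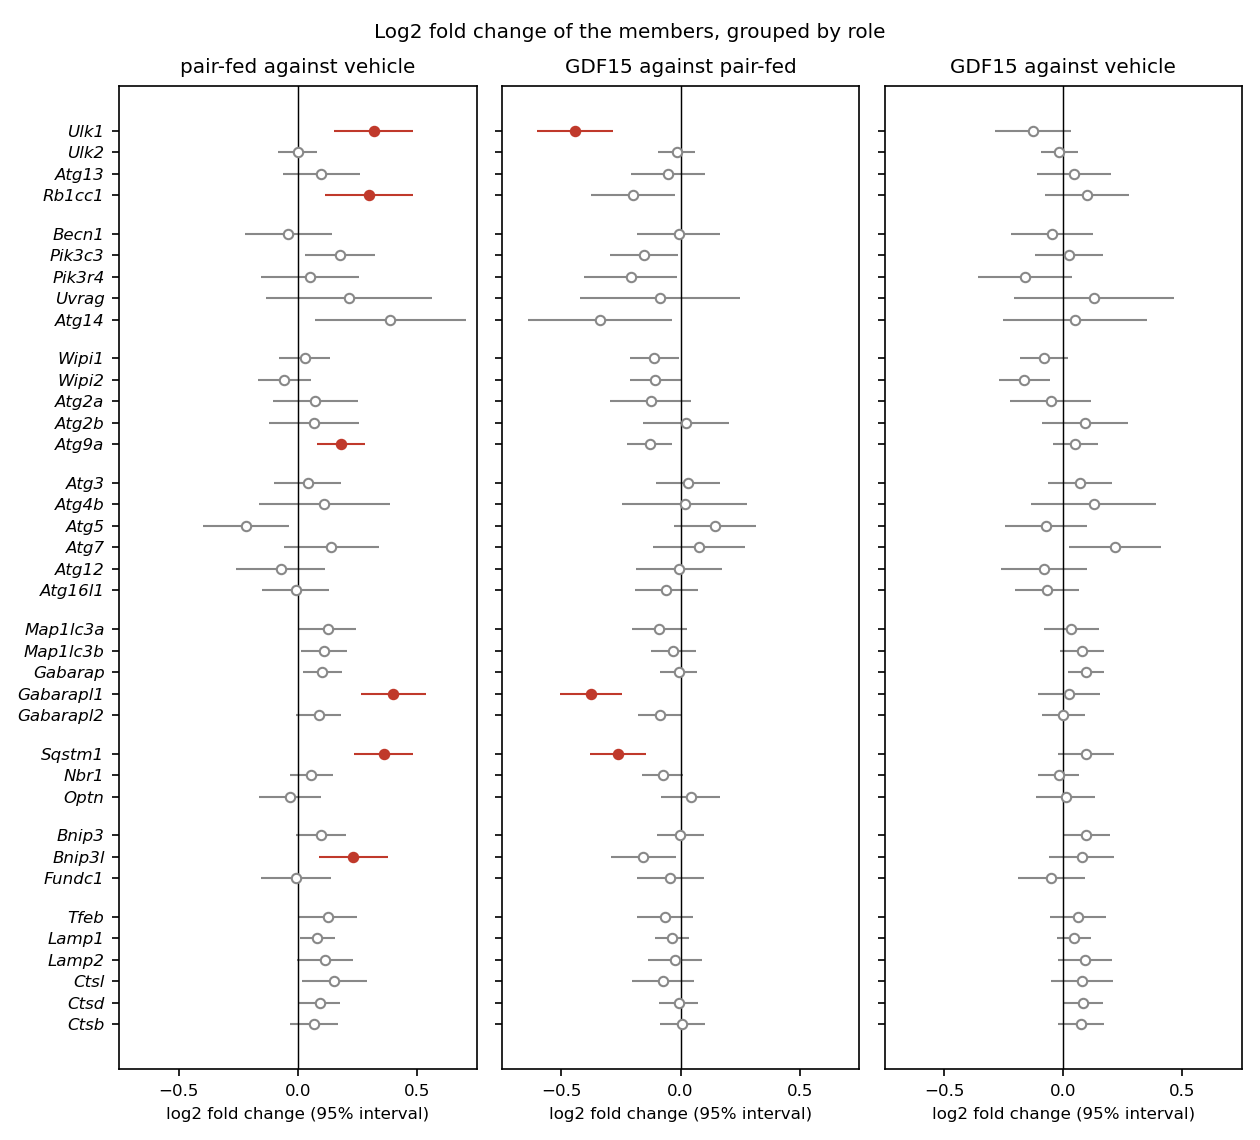
Log2 fold change of each member with its 95% interval in the 3 comparisons, grouped by role from initiation at the top to lysosome at the bottom; filled red points passed an adjusted p of 0.1. The 6 red points of pair-fed against vehicle lie to the right of 0, the 3 of GDF15 against pair-fed lie to the left, and GDF15 against vehicle has none.

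The calls were not retained without the libraries of the smaller branch. Without the 4 libraries, which left 2 pair-fed, 5 GDF15-treated and 5 vehicle mice, limma called no member in any comparison. At an unadjusted p under 0.05 there were 9 of 37 members (24.3%) in GDF15 against pair-fed muscle beside 6.54% of all genes, 7 (18.9%) in pair-fed against vehicle muscle beside 8.08%, and 5 (13.5%) in GDF15 against vehicle muscle beside 10.6%. Over all genes the calls at adjusted p went from 754 to 17 in pair-fed against vehicle muscle, from 257 to 0 in GDF15 against pair-fed muscle (775 genes at an unadjusted p under 0.05) and from 91 to 72 in GDF15 against vehicle muscle, which uses the pair-fed libraries for the shared spread alone. In pair-fed against vehicle muscle the log2 fold change of Gabarapl1 was then 0.32 ± 0.06 (adjusted p = 0.101), Sqstm1 was at 0.23 ± 0.07 (adjusted p = 0.317), Ulk1 at 0.14 ± 0.09 (adjusted p = 0.745) and Rb1cc1 at 0.08 ± 0.09 (adjusted p = 0.875). Atg9a was at 0.13 ± 0.06 (adjusted p = 0.605) and Bnip3l at 0.19 ± 0.09, also not called. In GDF15 against pair-fed muscle Ulk1 was at −0.25 ± 0.09 (adjusted p = 0.632), Gabarapl1 at −0.27 ± 0.06 (adjusted p = 0.558) and Sqstm1 at −0.15 ± 0.07 (adjusted p = 0.718).

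Within the pair-fed group, the level of Rb1cc1 was separated along this split. Pair-fed mice 2, 5 and 6 had 1243 to 1445 normalized counts and pair-fed mice 3 and 4 had 1040 and 1062. Sqstm1 was also separated, at 9307 to 9685 against 7844 and 8623, and so was Ulk1, at 2346 to 2619 against 1811 and 2164. Gabarapl1 was not, since pair-fed mouse 4 at 893 lay above mouse 2 at 856. The branch also held GDF15-treated mouse 1, which was inside the range of its group for Rb1cc1 (1088) and Ulk1 (1606). That mouse was the highest of its group for Sqstm1 (7807) and the lowest for Gabarapl1 (635). Leaving out single libraries ended the calls of Rb1cc1 in 7 of 16 cases (pair-fed mouse 2, 5 or 6, or vehicle mouse 1, 2, 4 or 5), of Bnip3l in 6 (pair-fed mouse 3, 5 or 6, or vehicle mouse 3, 4 or 5) and of Atg9a in 2 (pair-fed mouse 6 or vehicle mouse 5). The calls of Ulk1, Gabarapl1 and Sqstm1 in pair-fed against vehicle muscle remained in all 16 cases, as did those of Ulk1 and Gabarapl1 in GDF15 against pair-fed muscle; that of Sqstm1 was lost without pair-fed mouse 5 or 6 (largest adjusted p = 0.119).

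Further genes of the pathway were counted in 4 lists with all libraries. Without the 4 libraries of the smaller branch limma called no gene of these lists in any comparison, so that each call below was lost with 2 pair-fed mice left. The 22 calls nevertheless had the same sign, and 13 of their log2 fold changes were within 1.5 times of the value with all libraries, such as Vmp1 in GDF15 against pair-fed muscle (0.33 with all libraries and 0.38 without), Sesn1 (−0.36 and −0.35) and, in pair-fed against vehicle muscle, Eif4ebp1 (0.34 and 0.32). The other 9 were smaller by more than that and belonged to Atp6v0a1, Tax1bp1 and Trp53inp2 in both comparisons and to Fkbp8, Gaa and Rubcn in pair-fed against vehicle muscle. In that setting the shares of genes at an unadjusted p under 0.05 in the autophagosome (24 genes), receptor (18), lysosome (34) and regulator (26) lists were 12.5%, 11.1%, 5.88% and 11.5% in GDF15 against pair-fed muscle, beside 6.54% of all genes. They were 20.8%, 16.7%, 14.7% and 11.5% in pair-fed against vehicle muscle, beside 8.08%, and 12.5%, 5.56%, 14.7% and 15.38% in GDF15 against vehicle muscle, beside 10.6%. Among 18 further cargo receptor and mitophagy genes, 5 (27.8%) were higher and none lower in pair-fed than vehicle muscle at an adjusted p under 0.1, where 3.2% of all genes were higher, and the list median was 0.12 beside 0.0013 for all genes. The smallest adjusted p-values belonged to Tax1bp1, a ubiquitin-binding receptor (0.20 ± 0.05, adjusted p = 0.0318), Calcoco1, a receptor for endoplasmic reticulum (0.15 ± 0.04, adjusted p = 0.0484), and Pink1, the kinase that marks damaged mitochondria (0.16 ± 0.04, adjusted p = 0.0545). Tollip and Fkbp8 also passed. Calcoco1 (−0.16 ± 0.04, adjusted p = 0.0577) and Tax1bp1 (−0.17 ± 0.05, adjusted p = 0.0902) were the 2 genes of the list (11.1%, beside 1.24% of all genes) that were lower in GDF15-treated than pair-fed muscle, and none was higher.

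Of 34 tested further lysosome genes, 4 (11.8%) were higher and none lower in pair-fed than vehicle muscle, beside 3.2% of all genes that were higher. The list median was 0.11. They were the proton pump subunit genes Atp6v0a1 (0.21 ± 0.05, adjusted p = 0.0375) and Atp6v0c (0.13 ± 0.04, adjusted p = 0.0663), the acid alpha-glucosidase gene Gaa, whose product digests lysosomal glycogen (0.21 ± 0.05, adjusted p = 0.0447), and the sialidase gene Neu1. In GDF15 against pair-fed muscle 1 gene of 34 passed, Atp6v0a1, which was lower (2.94%, beside 1.24% of all genes), at −0.20 ± 0.05 (adjusted p = 0.0763).

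In 24 tested further autophagosome genes the list median was −0.043 in pair-fed against vehicle muscle, none was called higher and 2 were called lower (8.33%, beside 3.17% of all genes): Vmp1, a scramblase of the endoplasmic reticulum needed to form autophagosomes (−0.26 ± 0.08, adjusted p = 0.0711), and Rubcn, an inhibitor of the beclin 1 complex (−0.17 ± 0.06, adjusted p = 0.0936). Vmp1 was higher with GDF15 than in pair-fed muscle (0.33 ± 0.08, adjusted p = 0.0486), at 842 ± 63 (SD, n = 6) against 670 ± 49 (n = 5) normalized counts, and these groups did not overlap.

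Upstream regulators had calls in both directions. Of 26 genes, 3 were higher and 1 was lower in pair-fed than vehicle muscle (15.38%, beside 6.37% of all genes), and 2 were lower and 1 higher in GDF15-treated than pair-fed muscle (11.5%, beside 2.17%). Fnip1, a partner of folliculin in nutrient sensing by mTORC1, was higher in pair-fed than vehicle muscle (0.38 ± 0.08, adjusted p = 0.0131) and lower with GDF15 than in pair-fed muscle (−0.44 ± 0.07, adjusted p = 0.0107). Eif4ebp1, a translation repressor that mTORC1 phosphorylates, was higher in pair-fed than vehicle muscle (0.34 ± 0.07, adjusted p = 0.0123), and so was Flcn, the folliculin gene. Trp53inp2, which encodes the autophagy regulator DOR, went the other way: it was at 8390 ± 473 normalized counts in vehicle, 6801 ± 632 in pair-fed and 7983 ± 472 in GDF15-treated muscle, lower in pair-fed than vehicle (−0.31 ± 0.06, adjusted p = 0.0123) and higher with GDF15 than pair-fed (0.23 ± 0.06, adjusted p = 0.0678). Sesn1, a stress-inducible inhibitor of mTORC1, was lower with GDF15 than in pair-fed muscle (−0.36 ± 0.08, adjusted p = 0.0486). No gene of the 4 lists passed the fold rule in any comparison or the adjusted p threshold in GDF15 against vehicle muscle, where limma gave 3 of 24 (12.5%), 1 of 18 (5.56%), 6 of 34 (17.6%) and 3 of 26 (11.5%) genes at an unadjusted p under 0.05 in the autophagosome, receptor, lysosome and regulator lists, beside 11.05% of all genes.

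**Figure D4:**
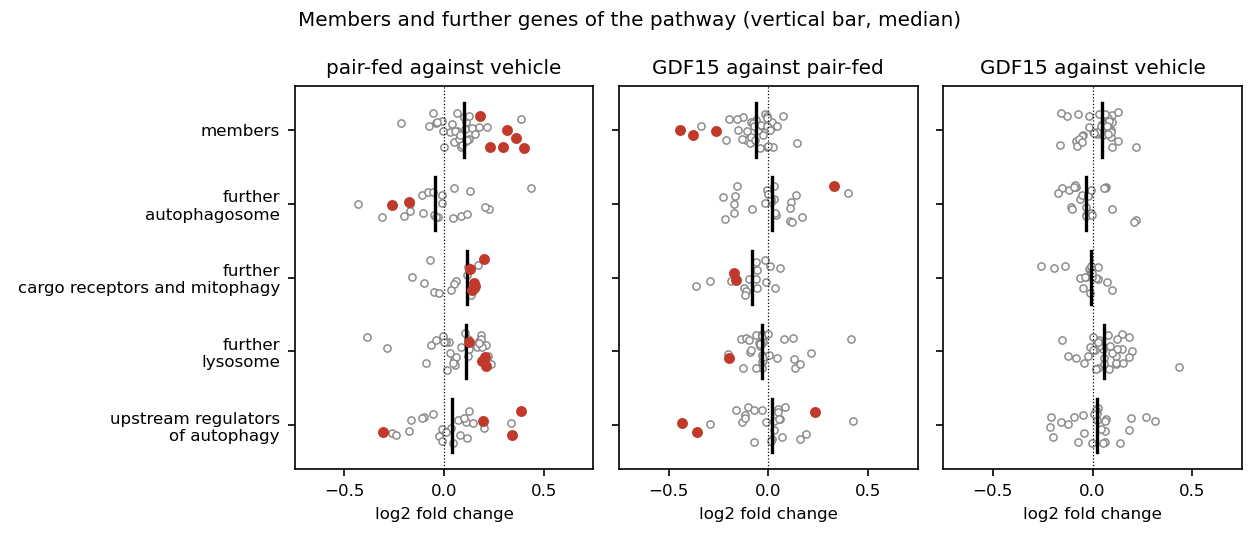
Log2 fold changes of the 37 members and of 4 lists of further pathway genes in the 3 comparisons, 1 point per gene; red points passed an adjusted p of 0.1 and vertical bars are medians. In pair-fed against vehicle muscle the medians of the members, receptor and lysosome lists lie near 0.1 and that of the further autophagosome list lies at −0.043.

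The DNA before the starts of the members was also read. The table of RefSeq promoter windows (GRCm38.p6) held 29 of the 37 members, and the 250 bases before each start were searched on both strands for CACGTG, the core recognised by TFEB, for its longer form GTCACGTG, which contains that core, and for TGTTTAC, 1 form of the element recognised by FoxO factors, whose other forms were not searched. The stretches from 250 to 51 bases before the start are shown for the 3 members called in both comparisons; they lie at chr6:129532942-129533141 (plus strand), chr11:50210871-50211070 (minus strand) and chr5:110810132-110810331 (minus strand).
Gabarapl1: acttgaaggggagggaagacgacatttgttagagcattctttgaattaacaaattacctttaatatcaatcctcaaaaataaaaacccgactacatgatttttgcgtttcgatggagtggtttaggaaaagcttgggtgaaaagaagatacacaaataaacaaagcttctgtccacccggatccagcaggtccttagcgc
Sqstm1: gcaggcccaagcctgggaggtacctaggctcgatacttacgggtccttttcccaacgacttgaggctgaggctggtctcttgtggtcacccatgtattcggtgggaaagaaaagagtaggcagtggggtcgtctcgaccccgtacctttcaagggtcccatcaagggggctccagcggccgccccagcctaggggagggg
Ulk1: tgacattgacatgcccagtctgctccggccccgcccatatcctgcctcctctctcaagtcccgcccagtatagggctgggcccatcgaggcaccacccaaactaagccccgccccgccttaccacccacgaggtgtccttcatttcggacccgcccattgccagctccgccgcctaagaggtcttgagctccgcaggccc

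Neither these stretches nor the rest of the 250 bases of the 3 genes held any of the 3 motifs, which says only that these exact letters are not in this window and nothing of other FoxO forms. The same was true of Atg9a; Rb1cc1 and Bnip3l were not in the table. CACGTG was found before 7 of the 29 members (24.1%), namely Atg3, Atg5, Atg7, Bnip3, Lamp1, Ctsl and Ctsd, and in 6.02% of all 32851 windows. The first share counts members and the second counts windows, and Tfeb and Nbr1 had several windows each. RefSeq and GENCODE differ in some starts: the windows of Atg7 and Ctsl lay wholly inside the GENCODE gene, as did a window of 7 other members, and 211 of the 250 bases of Ctsd and 186 of those of Atg9a lay inside it. The longer form was found before Atg3, Atg7, Lamp1 and Ctsd and in 1.85% of all windows, and TGTTTAC was before no member and in 3.17% of all windows. The windows of Lamp1 (chr8:13159073-13159160, plus strand) and Atg3 (chr16:45158706-45158790, plus strand) are shown in part for contrast, with matches in capitals, because Lamp1 held the most matches of all members and Atg3, like Ctsd, held 2 of the longer form; neither gene passed the test in any comparison.
Lamp1: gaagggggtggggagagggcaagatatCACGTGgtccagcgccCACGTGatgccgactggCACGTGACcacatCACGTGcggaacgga
Atg3: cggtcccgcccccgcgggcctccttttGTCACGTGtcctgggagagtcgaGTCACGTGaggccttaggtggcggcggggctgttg

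In the Lamp1 stretch the matches to CACGTG began 61, 45, 28 and 15 bases before the start, and in the Atg3 stretch those to GTCACGTG began 96 and 73 bases before it. None of the 7 members with a match was among the 6 that passed the adjusted p threshold. Their log2 fold changes in pair-fed against vehicle muscle ran from −0.22 for Atg5 to 0.15 for Ctsl. A match is a description of sequence and not a measured binding site.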

How the data were processed

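RNA from tibialis anterior muscle of 16 mice was sequenced by the authors, using Trim Galore for trimming, Salmon for transcript quantification and DESeq2 for scaling; the submitters' processing notes name mm10, and tool versions, annotation and strand setting are not given in the sources used here. The authors deposited log2 values after a variance stabilizing transformation (7.32 to 19.96). The planned tests assumed normalized counts, so the values were transformed back with the inverse of the transformation's closed form. Low values of genes with 1 annotated transcript fell within 0.1 reads of whole multiples in 87.9% to 96.7% of cases per library, those of genes with over 4 transcripts in 20.0% to 26.9%, so whole reads were not recovered. Depth was estimated from that step; SDs and SEs include counting error.

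The 11841 genes averaging 10 or more normalized counts entered limma 3.58.1 as log2(normalized count + 1) (trended eBayes, 3 groups in 1 fit, R 4.3.3); fold changes are on that scale. Benjamini-Hochberg adjustment of the two-sided p-values covered all tested genes. The call thresholds were an adjusted p of 0.1, alone or with a log2 fold change above 0.6 in size. All 37 members passed the filter. The steps were tested on simulated data drawn separately for each gene and library, scored for pair-fed against vehicle muscle alone. Those data held no branch of libraries such as the one found here. Groups and mouse numbers came from the labels, as did 1 library per mouse.

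Members, further lists, markers and motifs were chosen with earlier results of these data known. Members with an adjusted p under 0.1 in any comparison were described in full, with the 2 others per role closest to 0.1 and, from the further lists, up to 3 genes per list and comparison with the smallest adjusted p under 0.1; Becn1, Tfeb and the other names were given after their values were seen. Rubcnl was too low to test and Gla was not in the table. Positions and transcript lengths are from GENCODE vM21 and promoter windows from RefSeq (GRCm38.p6). Of 8 marker lists, muscle fibre alone held markers past the adjusted p threshold.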

Additional observations from a re-analysis of the deposited data

Results flagged for a closer look

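For each member, the highest or lowest mouse of each group was compared with its neighbours by Dixon's ratio, and 6 of 111 groups held a value far from the rest, where chance gives about 1 in 20 groups. Pik3c3 was at 251 normalized counts in vehicle mouse 4, against 289 to 295 in the other vehicle mice. Uvrag was at 167 in GDF15-treated mouse 3, against 219 to 238 in the other mice of that group. Atg2a was at 660 in GDF15-treated mouse 5, against 539 to 575, and at 803 in pair-fed mouse 5, against 547 to 614. Atg12 was at 423 in pair-fed mouse 4, against 335 to 359. Lamp2 was at 1150 in GDF15-treated mouse 1, a library of the smaller branch, against 912 to 998. None of these genes passed the test in any comparison.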

How the results depend on the processing

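The counts of members called at an adjusted p under 0.1 were recomputed under 31 alternatives. Without the 4 libraries of the smaller branch, a setting added after the data had been seen, the count went from 3 to 0 in GDF15 against pair-fed and from 6 to 0 in pair-fed against vehicle muscle; this setting leaves fewer samples, 2 of them pair-fed, and the cause was not tested further. With 1 library left out at a time the count ran from 2 to 4 in GDF15 against pair-fed and from 3 to 7 in pair-fed against vehicle muscle (3 without vehicle mouse 5 or pair-fed mouse 6), and stayed at 0 in GDF15 against vehicle muscle. Under the other alternatives (pseudocount, filter, trend, prior, groups in the fit, library weights, scaling, deposited log2 values and replicate block) it was 3 in GDF15 against pair-fed, 0 in GDF15 against vehicle and 4 to 7 in pair-fed against vehicle muscle. Sample numbers repeat between groups, but the mice are different animals and same-numbered mice did not deviate together (correlations −0.099 to 0.067); with a replicate block, 3 members were called in GDF15 against pair-fed, 0 in GDF15 against vehicle and 4 in pair-fed against vehicle muscle, Rb1cc1 and Bnip3l being lost. The count with the fold rule was 0 under every alternative. Atg14 (2 groups only, adjusted p = 0.0974) and Ctsd (quantile normalization, adjusted p = 0.0519) were gained in pair-fed against vehicle muscle; Rb1cc1 was lost with 2 groups only, and Rb1cc1 and Bnip3l without the trend. The list median of pair-fed against vehicle was 0.072 on the deposited log2 scale, which compresses low values, and between 0.072 and 0.116 over all alternatives. The widest 95% interval of a member in pair-fed against vehicle muscle was that of Uvrag, 0.35 on either side, with pair-fed mouse 3 at 375 normalized counts and the other pair-fed mice at 158 to 241.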
